A study of Mus musculus with 6 samples.

Results

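The 10 genes described here are classic interferon-stimulated genes: Ifit1, Ifit2, Ifit3, Ifit3b, Isg15, Usp18, Rsad2, Bst2, Mx1 and Rtp4. They were chosen by name from the 54532 genes of the count table, and each name matched 1 gene. The material was total RNA of mouse endothelial cells in culture, which form the inner lining of vessels. They had received lentivirus carrying RBPMS, an RNA-binding protein that takes part in splicing (RBPMS group, 3 libraries), or lentivirus carrying an empty vector (Control group, 3 libraries), for 72 h. Both groups grew in the same complete mouse endothelial medium and both met lentivirus, so the comparison holds no group without virus. The sources used here do not give the origin or strain of the cells, the species of the RBPMS sequence in the vector, or whether the libraries came from separate cultures. Each p-value therefore reflects the spread between these libraries alone, which may be technical.

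Interferons are secreted proteins that warn cells of viral infection. Type I interferon binds the receptor IFNAR, the kinases JAK1 and TYK2 become active, and a transcription factor complex that contains IRF9 then binds the interferon-stimulated response element (ISRE) in the promoters of its target genes. Endothelial cells carry the receptor and respond strongly, and RNA sensors inside the cell can switch on many of the same genes. Some of the products bind foreign RNA, some block virus assembly or release, and some, such as Usp18, shut the response down again.

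The shared regulatory element could be read in the promoters. RefSeq windows (GRCm38.p6, from 250 bases before to 50 after each annotated start) were found for 7 of the 10 genes, and not for Usp18, Mx1 and Rtp4. The core of the ISRE was searched as GAAA, any 2 bases, then GAAA, on both strands, with overlapping matches each counted. It was found in 6 of the 8 windows of these genes (Ifit2 has 2 windows and no match in either), against 38.2% of 131 windows of other interferon pathway genes and 3.44% of all 32851 windows. A match is a description of the letters and not a bound site. The matching stretches upstream of the start are shown because they are what Ifit1, Ifit3, Ifit3b, Isg15, Rsad2 and Bst2 have in common, 5′ to 3′ on the strand of the gene, with the matches in capitals. They lie at chr19:34640755-34640843 (Ifit1, plus strand), chr19:34583343-34583446 (Ifit3, plus), chr19:34607739-34607842 (Ifit3b, plus), chr4:156200845-156200926 (Isg15, minus), chr12:26456533-26456602 (Rsad2, minus) and chr8:71537557-71537632 (Bst2, minus).
Ifit1: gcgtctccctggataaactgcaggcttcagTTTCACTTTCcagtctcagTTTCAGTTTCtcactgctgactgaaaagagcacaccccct
Ifit3: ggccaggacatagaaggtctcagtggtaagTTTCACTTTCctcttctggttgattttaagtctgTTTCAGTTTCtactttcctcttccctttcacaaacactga
Ifit3b: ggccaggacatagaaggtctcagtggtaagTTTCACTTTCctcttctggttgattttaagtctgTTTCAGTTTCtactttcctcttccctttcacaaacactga
Isg15: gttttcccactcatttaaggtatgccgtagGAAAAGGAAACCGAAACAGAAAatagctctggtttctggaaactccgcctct
Rsad2: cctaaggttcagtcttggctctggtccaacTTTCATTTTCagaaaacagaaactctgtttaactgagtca
Bst2: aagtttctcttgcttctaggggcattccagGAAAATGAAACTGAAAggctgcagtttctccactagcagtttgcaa

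Ifit1, Ifit3 and Ifit3b each held 2 matches with the same letters, TTTCACTTTC and then TTTCAGTTTC. The stretches of Ifit3 and Ifit3b were identical over all 104 bases, and their upstream windows matched at 217 of 218 aligned bases. In Isg15 3 matches overlapped in a single run, in Bst2 2 matches did, and Rsad2 held 1. The γ-interferon activated site was searched as TTC, any 3 bases, then GAA. It was found in 2 of the 8 windows, 1 of Ifit2 and the window of Bst2, against 20.6% of the windows of other pathway genes and 8.30% of all windows.

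Before any result, 1 library has to be set apart. Control replicate 3 differed from Control replicates 1 and 2 with a chi-square of 137 and 130 per degree of freedom over genes, against 3.19 to 4.32 for the other pairs within a group. It held more of short genes and less of long ones: over genes of the shortest 5% the median log2 difference from the other 2 controls was 0.58, and over the longest 5% it was -0.82. The 10 genes are therefore described with all 6 libraries and without Control replicate 3. Total counts ran from 15779567 to 23076124. Levels are in CPM, counts relative to library size scaled by the trimmed mean of M-values (TMM). Rbpms had 131, 148 and 133 CPM in RBPMS replicates 1 to 3, against 57.1, 56.8 and 55.2 CPM in Control replicates 1 to 3, and thus lay higher in every RBPMS library. An exact permutation test, two-sided, gave p = 0.1, the smallest that 3 against 3 allows, and the edgeR adjusted p was 3.6e-11 without Control replicate 3 and 0.0606 with it. The 13 endothelial markers each reached 1 CPM and together summed to 18521 to 19480.5 CPM in RBPMS libraries and 16910.1 to 21482 CPM in Control libraries, with the lowest sum in Control replicate 3. Without that library 2 of the 13 rose (Erg and Emcn) and 3 fell (Kdr, Flt1 and Vwf), against 3.81% and 3.43% of all genes tested. Over all 6 libraries 0 were called.

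Without Control replicate 3, 4 of the 10 genes rose with RBPMS and 0 fell: Ifit1, Ifit3, Ifit3b and Rsad2 (edgeR quasi-likelihood test, adjusted p under 0.05). In that fit 7.24% of all 14123 genes tested were called, 3.81% as higher and 3.43% as lower. Ifit3 and Ifit3b are near copies, and with their counts summed 3 of 9 members and 1023 of 14122 genes were called. DESeq2 on the same 5 libraries called 776 genes and 0 of the 10, so the calls of Ifit1, Ifit3 and Ifit3b were lost with that test, and Rsad2 was given no adjusted p. Over all 6 libraries 0 of the 10 genes and 0 of 13898 genes tested passed the same test, and 2 of the 10, Ifit2 and Rsad2, had an unadjusted p under 0.05, as had 7.56% of all genes. There DESeq2 called 56 genes and limma-voom 0, none of them among these 10. The median log2 fold change of the 10 was 0.41 without Control replicate 3 and 0.33 with it, beside -0.0025 and -0.0083 over all genes tested. It was positive for 9 and for 7 of the 10, against 49.3% and 49% of all genes. In bulk RNA a change in the share of responding cells and a change in the RNA per cell cannot be told apart.

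**Figure D1:**
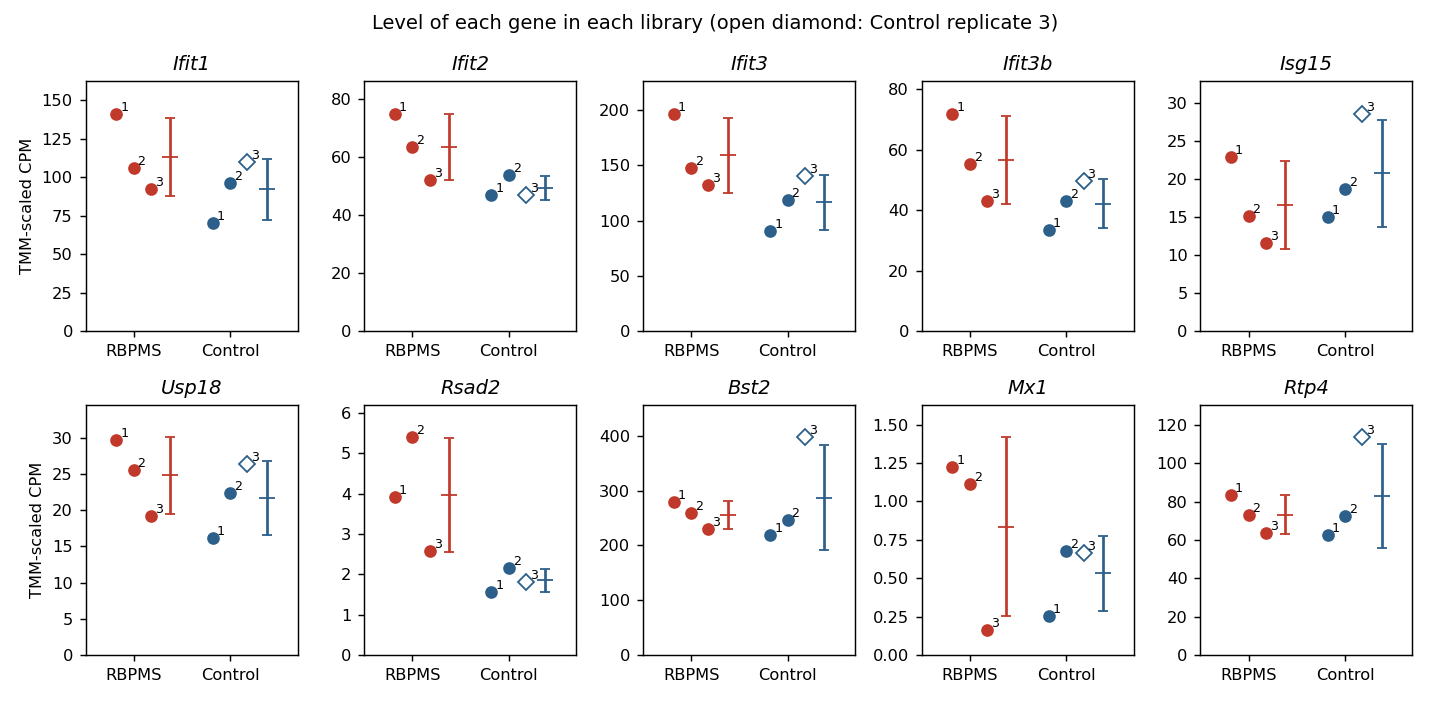
Level of each of the 10 genes in each library, in TMM-scaled CPM on axes that start at 0, with RBPMS libraries in red on the left and Control libraries in blue on the right. Digits are replicate numbers, the open diamond is Control replicate 3, and bars are mean and SD (n = 3 each). The groups separate completely for Rsad2, and Control replicate 3 is the highest of the 6 libraries for Isg15, Bst2 and Rtp4.

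The IFIT genes (interferon-induced proteins with tetratricopeptide repeats) lie together on chromosome 19 and encode proteins that bind RNA, with IFIT1 recognising foreign 5′ ends. Ifit3 (ENSMUSG00000074896, chromosome 19, 34583531 to 34588731, plus strand), whose human counterpart stabilises IFIT1, had 197, 148 and 132 CPM in RBPMS replicates 1 to 3, against 91.0, 118 and 140 CPM in Control replicates 1 to 3. The 3 RBPMS libraries lay above Control replicates 1 and 2, and Control replicate 3 lay above RBPMS replicate 3. Without that control, Ifit3 and Rsad2 were the 2 members whose groups did not overlap, against 18.3% of all genes with RBPMS higher. The log2 fold change of Ifit3 was 0.61 ± 0.12 (SE) without Control replicate 3, with an edgeR adjusted p of 0.00222, and 0.45 ± 0.21 (adjusted p = 0.587) over the 6 libraries together. With Control replicate 1 left out as well it was 0.43, with an adjusted p of 0.0937. DESeq2 without Control replicate 3 gave 0.61 ± 0.27 with an adjusted p of 0.177, so the call was lost there too.

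Ifit3b (ENSMUSG00000062488, chromosome 19, 34607970 to 34613401, plus strand) is a near copy of Ifit3, and its counts need care. The 2 transcripts were identical at 1663 of 1697 aligned bases (98%), and 61.8% of the 31-base stretches of Ifit3 and 54.1% of those of Ifit3b also occur in the other gene. The sources used here do not say how the authors' counting divided such reads. Ifit3 held 73.2%, 72.8% and 75.5% of the summed Ifit3 and Ifit3b counts in RBPMS replicates 1 to 3, and 73.0%, 73.3% and 73.8% in Control replicates 1 to 3, so the division hardly differed between libraries. As counted, Ifit3b had 72.0, 55.2 and 42.9 CPM in RBPMS replicates 1 to 3, against 33.6, 43.1 and 49.8 CPM in Control replicates 1 to 3. RBPMS replicate 3 was slightly below Control replicate 2, so the groups overlapped with and without Control replicate 3. Its difference on the log2 scale was 0.57 ± 0.14 (edgeR adjusted p = 0.0158) without Control replicate 3 and 0.43 ± 0.22 (adjusted p = 0.587) over all 6 libraries. The call was lost with RBPMS replicate 1 (0.36, adjusted p = 0.0774) or Control replicate 1 (0.40, adjusted p = 0.257) left out as well, and with DESeq2 (adjusted p = 0.324). With the counts of both genes summed before the fit the difference was 0.59 ± 0.12, with an adjusted p of 0.00295, without Control replicate 3, and 0.44 ± 0.21 with an adjusted p of 0.587 over all 6.

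Ifit1 (ENSMUSG00000034459, chromosome 19, 34640871 to 34650009, plus strand) had 141, 106 and 92.1 CPM in RBPMS replicates 1 to 3, against 70.3, 96.0 and 110 CPM in Control replicates 1 to 3. RBPMS replicate 1 was the highest library and Control replicate 1 the lowest, with the other 4 close together and the groups mixed among them. For Ifit1 the log2 fold change was 0.44 ± 0.12 (edgeR adjusted p = 0.0336) without Control replicate 3 and 0.30 ± 0.22 (adjusted p = 0.598) over all 6 libraries. The call was lost when RBPMS replicate 1 (log2 fold change 0.26, adjusted p = 0.163) or Control replicate 1 (0.24, adjusted p = 0.443) was left out as well, and with DESeq2 (adjusted p = 0.471). Of its 31-base stretches, 9.16% also occur in the relative Ifit1bl2 and 5.23% in Ifit1bl1.

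Ifit2 (ENSMUSG00000045932, chromosome 19, 34550694 to 34576419, plus strand), an RNA-binding antiviral protein, shared no 31-base stretch with any other annotated gene. It had 74.9, 63.5 and 52.2 CPM in RBPMS replicates 1 to 3, against 46.9, 53.9 and 46.7 CPM in Control replicates 1 to 3. RBPMS replicates 1 and 2 were above the controls, and RBPMS replicate 3 was below Control replicate 2. Ifit2 was the longest of the 4 IFIT genes and Control replicate 3 did not stand out for it. Its fitted log2 fold change came to 0.34 ± 0.10 when Control replicate 3 was left out and 0.37 ± 0.15 over all 6 libraries. The edgeR adjusted p was 0.0519 and 0.587, so the threshold was missed in both fits. Without Control replicate 3 edgeR passed it with a replicate block (adjusted p = 0.0117) or no filter on low counts (0.000101). It also passed with RBPMS replicate 3 left out as well (edgeR adjusted p = 0.00209) and in limma-voom with library quality weights (0.0178). The other alternatives for those libraries missed it.

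Rsad2 (ENSMUSG00000020641, chromosome 12, 26442746 to 26456452, minus strand) encodes viperin, an enzyme that makes a chain-terminating nucleotide against viral RNA synthesis. It had the highest fold of the 10 genes, at a low level. The counts were 80, 116 and 47 in RBPMS replicates 1 to 3, against 25, 35 and 41 in Control replicates 1 to 3, which is 3.91, 5.39 and 2.58 CPM against 1.57, 2.16 and 1.81 CPM. No RBPMS library was as low as any control, which was so for Rsad2 alone among the 10 genes and for 12.2% of all 13898 genes tested. The exact 95% Poisson intervals of the counts in RBPMS replicate 3 (34.5 to 62.5) and Control replicate 2 (24.4 to 48.7) overlapped, so the gap between the nearest libraries was not resolved at this depth. The log2 fold change was 1.10 ± 0.29 (edgeR adjusted p = 0.0237) without Control replicate 3 and 1.10 ± 0.31 over all 6 libraries (adjusted p = 0.587, unadjusted p = 0.00936). With 1 more library left out beside Control replicate 3 it ran from 0.80 without RBPMS replicate 2 to 1.35 without Control replicate 2. The call held without RBPMS replicate 3 and was lost without each of the other 4 libraries.

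**Figure D2:**
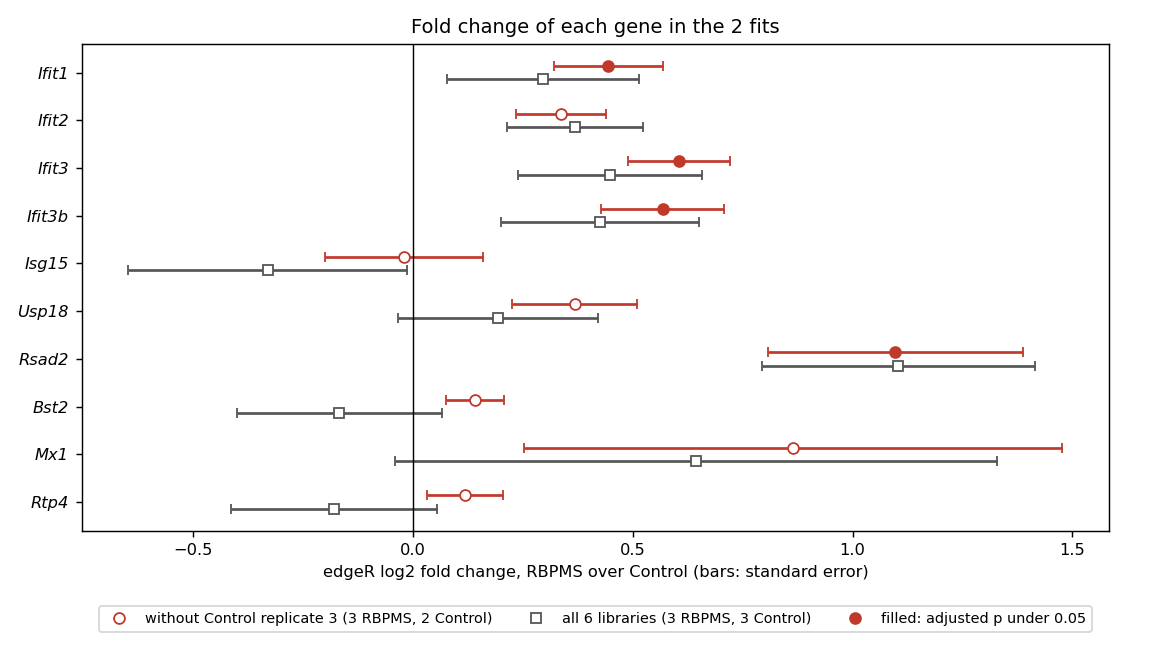
edgeR log2 fold change of each gene, RBPMS over Control, with its standard error. Circles are the fit without Control replicate 3, squares the fit over all 6 libraries, and filled symbols passed an adjusted p of 0.05. Ifit1, Ifit3, Ifit3b and Rsad2 are filled in the first fit, and Bst2 and Rtp4 lie on opposite sides of 0 in the 2 fits.

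Isg15 and Usp18 act on the same modification. Isg15 (ENSMUSG00000035692, chromosome 4, 156199424 to 156200818, minus strand) encodes a ubiquitin-like protein that is joined to other proteins. It had 23.0, 15.1 and 11.7 CPM in RBPMS replicates 1 to 3, against 15.0, 18.8 and 28.6 CPM in Control replicates 1 to 3. The highest library was Control replicate 3 and the lowest was RBPMS replicate 3. On the log2 scale the difference was -0.02 ± 0.18 without Control replicate 3 (edgeR adjusted p = 0.971) and -0.33 ± 0.32 over all 6 libraries (adjusted p = 0.639), so no direction could be given. Isg15 shares 10.2% of its 31-base stretches with an annotated gene named by its clone, AC151275.1.

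Usp18 (ENSMUSG00000030107, chromosome 6, 121245906 to 121270917, plus strand) encodes the protease that removes ISG15 and that also blocks the receptor IFNAR. It had 29.6, 25.6 and 19.2 CPM in RBPMS replicates 1 to 3, against 16.2, 22.3 and 26.4 CPM in Control replicates 1 to 3. As for Ifit1, RBPMS replicate 1 was highest and Control replicate 1 lowest. For Usp18 the log2 fold change was 0.37 ± 0.14 without Control replicate 3 (edgeR adjusted p = 0.128) and 0.19 ± 0.23 over all 6 libraries (adjusted p = 0.684). The locus Gm44148 overlaps 124 exonic bases of Usp18 on the opposite strand, and the sources used here do not say whether the counting used strand, without which reads of the 2 cannot be told apart.

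The other genes of the ISG15 cycle were tested as a list of 7, and 0 were called in either direction in either fit. Trim25, a ligase reported for both ubiquitin and ISG15, had a log2 fold change of 0.094 ± 0.047 without Control replicate 3 (edgeR adjusted p = 0.268) and 0.29 ± 0.20 over all 6 libraries (adjusted p = 0.591). Arih1, an ariadne-family ubiquitin ligase, had 0.068 ± 0.047 (adjusted p = 0.455) and 0.20 ± 0.14 (adjusted p = 0.598) in the same fits. The median of the list was 0.093, and 0.20 over all 6 libraries.

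Bst2, Rtp4 and Mx1 complete the set. Bst2 (ENSMUSG00000046718, chromosome 8, 71534255 to 71537456, minus strand) encodes tetherin, a membrane protein that holds budding virus at the cell surface, and it was the most abundant of the 10. It had 280.1, 259 and 229.6 CPM in RBPMS replicates 1 to 3, against 219, 247 and 397 CPM in Control replicates 1 to 3. The RBPMS libraries and Control replicates 1 and 2 lay within a narrow band, and Control replicate 3 lay far above it. The log2 fold change was 0.14 ± 0.066 without Control replicate 3 (edgeR adjusted p = 0.221) and -0.17 ± 0.23 over all 6 libraries (adjusted p = 0.729), so the sign depended on that library.

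Rtp4 (ENSMUSG00000033355, chromosome 16, 23520291 to 23614222, plus strand), a receptor transporter protein that interferon induces, had the same pattern. Its level was 83.5, 73.0 and 63.4 CPM in RBPMS replicates 1 to 3, against 62.7, 72.5 and 114 CPM in Control replicates 1 to 3. The log2 fold change was 0.12 ± 0.086 without Control replicate 3 (edgeR adjusted p = 0.475) and -0.18 ± 0.23 over all 6 libraries (adjusted p = 0.709). The locus Gm45338 shares 296 exonic bases with Rtp4 on the same strand, and 12.5% of the 31-base stretches of Rtp4, so some reads may have been divided. Masp1 overlaps the span of Rtp4 on the opposite strand with no shared exonic base.

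Mx1 (ENSMUSG00000000386, chromosome 16, 97447035 to 97462907, minus strand) encodes a dynamin-like antiviral GTPase. The count table lists it as protein-coding and RefSeq lists it as a transcribed pseudogene. The counts were 25, 24 and 3 in RBPMS replicates 1 to 3, against 4, 11 and 15 in Control replicates 1 to 3. RBPMS replicate 3 was the lowest of the 6 libraries, at 0.16 CPM, with an exact 95% Poisson interval of 0.619 to 8.77 counts. RBPMS replicates 1 and 2 were the highest, at 1.22 and 1.12 CPM. The log2 fold change was 0.87 ± 0.61 without Control replicate 3 (edgeR adjusted p = 0.468) and 0.64 ± 0.68 over all 6 libraries (adjusted p = 0.663). The interval of RBPMS replicate 3 did not overlap those of RBPMS replicates 1 (16.2 to 36.9) and 2 (15.4 to 35.7), so these libraries differed by more than counting error. Of its 31-base stretches, 7.22% also occur in Mx2, which had a log2 fold change of 0.20 ± 0.15 without Control replicate 3 (adjusted p = 0.478) and 0.21 ± 0.18 over all 6 libraries (adjusted p = 0.625).

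Per kilobase of annotated length, which allows genes to be set side by side, the mean level in the RBPMS libraries ran over 3 orders of magnitude. Bst2 came first with 284 CPM per kb, followed by Ifit3 with 91.1, Ifit1 with 42.5, Rtp4 with 34.4, Ifit3b with 28.4, Isg15 with 21.9 and Ifit2 with 16.2 CPM per kb. Usp18 (8.89), Rsad2 (0.91) and Mx1 (0.22 CPM per kb) were lowest. From Ifit1 down to Ifit2, the range of each neighbour across the 3 libraries overlapped that of the next, and the other neighbours did not overlap. The genes were measured in the same libraries, and within each RBPMS library the order from Bst2 down to Mx1 was the same. By the mean over the 3 Control libraries, Bst2 (318 CPM per kb) and Ifit3 (66.7) again led, and Rtp4 (38.9) stood above Ifit1 (34.6). Without Control replicate 3 these means were 258, 60.0, 31.7 and 31.3 CPM per kb. Rtp4 and Ifit1 were then nearly level, and in Control replicate 2 Ifit1 (36.1) stood above Rtp4 (34.0).

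The order of the libraries within a group was alike for many of the 10 genes. RBPMS replicate 1 was the highest RBPMS library for 9 of them, Rsad2 being the exception, against 30.6% of all genes tested. RBPMS replicate 3 was the lowest RBPMS library for 10 of 10, against 37.3%. Control replicate 1 was below Control replicate 2 for 10 of 10, against 49.7%. It was the lowest of all 6 libraries for 7, Ifit2, Isg15 and Mx1 being the exceptions, against 12.4%. These genes share libraries, so such counts are a description and carry no test.

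The mean deviation of the 4 IFIT genes from their 6-library means, on the log2 scale, was 0.51, 0.15 and -0.098 in RBPMS replicates 1 to 3, and -0.46, -0.11 and -0.00095 in Control replicates 1 to 3. RBPMS replicate 1 and Control replicate 1 were thus the extremes, and the remaining 4 libraries lay within a span that held both groups. RBPMS replicate 3 was below Control replicate 2 for 8 of the 10 genes (Ifit3 and Rsad2 were the exceptions), which was so for 50.2% of all genes. RBPMS replicates 1 and 2 both lay above Control replicates 1 and 2 for 9 of 10, Isg15 being the exception, against 24.9% of all genes.

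**Figure D3:**
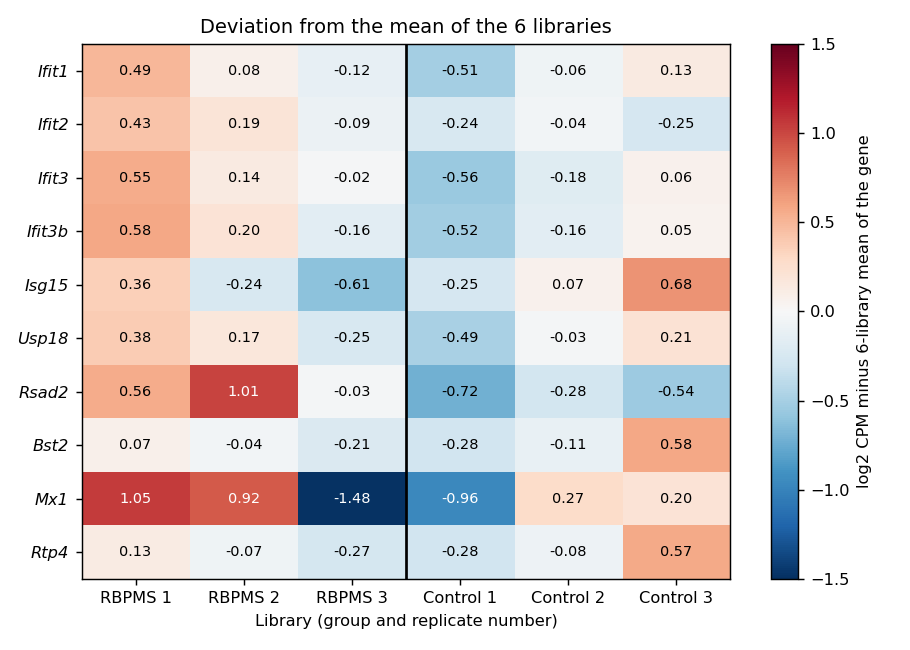
Deviation of each gene in each library from its mean over the 6 libraries, in log2 CPM, with RBPMS libraries left of the black line and Control libraries right of it. Red is above and blue below the mean. RBPMS replicate 1 is above the mean for every gene, Control replicate 1 is below it for every gene, and RBPMS replicate 3 is below it for every gene.

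The number of called genes moved with the libraries left out. Without Control replicate 3, 4 of the 10 were called. With RBPMS replicate 1 left out as well 1 remained called, Ifit3, and with Control replicate 1 left out as well 0 were called. With RBPMS replicate 3 left out as well 7 were called as higher. Without RBPMS replicate 2 it was 3 and without Control replicate 2 it was 4. Over all genes, 616 were called with RBPMS replicate 1 left out, 732 with replicate 2 and 1017 with replicate 3 of that group left out. The number was 415 without Control replicate 1 and 627 without Control replicate 2, against 1022 with all 5 libraries.

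Control replicate 3 was above both other controls for 7 of the 10 genes, Ifit2, Rsad2 and Mx1 being the exceptions, against 45.5% of all genes, and the highest of all 6 libraries for 3, against 40.3%. Its excess over the mean of Control replicates 1 and 2 ran with gene length, as over all genes. It was 0.77 on the log2 scale for Isg15 (756 bases), 0.78 for Bst2 (903 bases), 0.43 for Ifit3 (1745 bases) and -0.042 for Rsad2 (4335 bases). The trend over all genes of those lengths was 0.65, 0.63, 0.50 and -0.014. Rtp4 (0.75 at 2131 bases, trend 0.41), Usp18 (0.47 at 2790 bases, trend 0.26) and Mx1 (0.55 at 3785 bases, trend 0.071) lay further above the trend. The value of Mx1 rests on 4, 11 and 15 counts in Control replicates 1 to 3. Its level in Control replicate 3 (0.661 CPM) was below that in Control replicate 2 (0.679 CPM). With each library's length trend as an offset, the log2 fold changes over all 6 libraries were 0.65 ± 0.16 for Ifit3, -0.012 ± 0.245 for Isg15, 0.14 ± 0.11 for Bst2 and 0.0047 ± 0.14 for Rtp4, and 0 of the 10 were called.

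**Figure D4:**
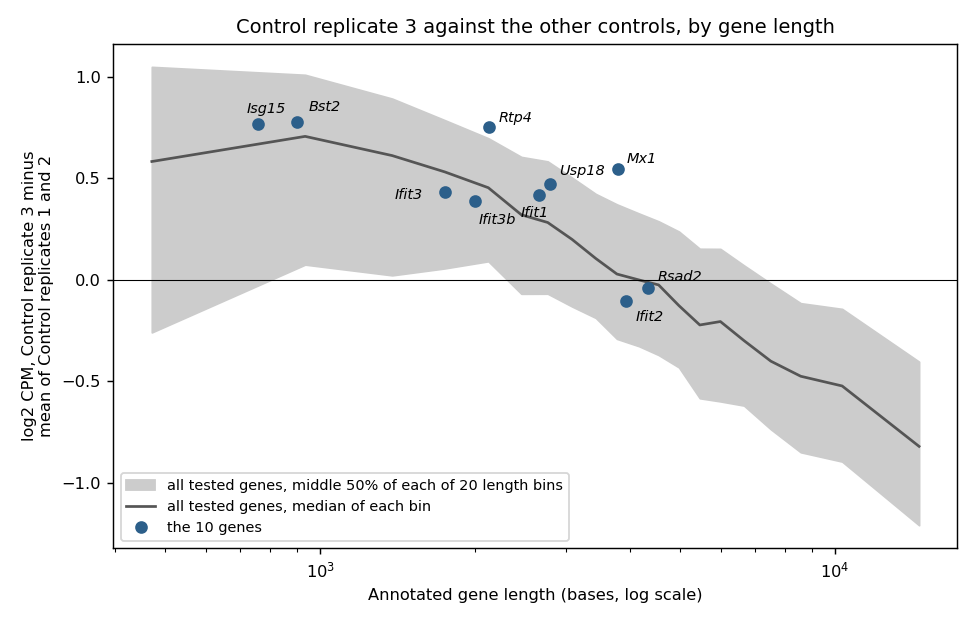
Difference between Control replicate 3 and the mean of the other 2 controls in log2 CPM, against annotated gene length on a log axis. The grey line and band are the median and the middle 50% of all tested genes in 20 length bins, and the points are the 10 genes. The median is 0.58 in the shortest bin and -0.82 in the longest, and Rtp4 and Mx1 lie above the band. Mx1 had only 4, 11 and 15 counts in Control replicates 1 to 3.

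The interferon genes themselves were at or near 0. Of 20 listed type I, II and III interferon genes 16 had no count in any library, which allows up to 0.132 to 0.189 CPM per library (3 counts, counting error only). Ifnb1, the interferon most cells other than leukocytes make first, had 0, 2 and 0 counts in RBPMS replicates 1 to 3, against 1, 0 and 2 counts in Control replicates 1 to 3. Ifne, a type I interferon best known from the female reproductive tract, was the 1 gene of the list that could be tested. It had 1.47, 1.63 and 1.81 CPM in RBPMS replicates 1 to 3, against 2.58, 1.79 and 2.91 CPM in Control replicates 1 to 3, with a log2 fold change of -0.42 ± 0.28 without Control replicate 3 (edgeR adjusted p = 0.44) and -0.58 ± 0.25 over all 6 libraries (adjusted p = 0.587).

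Of 5 tested receptor subunits 1 rose without Control replicate 3, against 3.81% of all genes tested. Il10rb, a subunit shared by the receptors of interferon lambda and interleukin 10, had 64.9, 61.8 and 62.3 CPM in RBPMS replicates 1 to 3, against 43.7, 48.9 and 63.6 CPM in Control replicates 1 to 3. It differed by 0.45 ± 0.068 on the log2 scale in that fit (adjusted p = 0.000298) and by 0.27 over all 6 libraries (edgeR adjusted p = 0.587), where Control replicate 3 was level with the RBPMS libraries. Its partner Ifnlr1 had at most 0.132 CPM in any library. Ifnar1, a subunit of the type I receptor chosen here after its values were seen, had a log2 fold change of 0.10 ± 0.046 without Control replicate 3 (edgeR adjusted p = 0.211) and 0.20 ± 0.13 over all 6 libraries (adjusted p = 0.588). Ifnar2, the other subunit and likewise chosen later, went the other way. It had -0.071 ± 0.066 (edgeR adjusted p = 0.603) and -0.15 ± 0.11 (adjusted p = 0.598) in the same fits. Of the 5 tested subunits 3 had a positive log2 fold change in each fit, against 49.3% and 49% of all genes.

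Among 15 signal transducers 0 were called in either fit, and their median on the log2 scale was 0.031 without Control replicate 3. The 2 most abundant were the kinases Jak1 (log2 fold change -0.0075 ± 0.045) and Jak2 (0.0074 ± 0.061), with 0.14 ± 0.16 and 0.052 ± 0.11 over all 6 libraries. Of the 15, 9 had a positive log2 fold change without Control replicate 3 and 8 over all 6 libraries, against 49.3% and 49% of all genes. Socs1, chosen after its values were seen, had a negative one. It was -0.37 ± 0.19 without Control replicate 3 (edgeR adjusted p = 0.293) and -0.54 ± 0.20 over all 6 libraries (adjusted p = 0.587). Irf7, the transcription factor that interferon induces to amplify the response, was also chosen after its values were seen. It had 40.0, 35.8 and 29.4 CPM in RBPMS replicates 1 to 3, against 23.3, 34.8 and 32.1 CPM in Control replicates 1 to 3, with the lowest value again in Control replicate 1 (log2 fold change 0.28 ± 0.13 without Control replicate 3, edgeR adjusted p = 0.226, and 0.22 ± 0.19 over all 6 libraries, adjusted p = 0.614).

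Of 9 tested sensors of foreign RNA and DNA 1 rose without Control replicate 3, against 3.81% of all genes tested. This was Ddx58 (RIG-I), at 209.5, 199 and 201 CPM in RBPMS replicates 1 to 3, against 167, 184 and 137 CPM in Control replicates 1 to 3. Its log2 fold change was 0.21 ± 0.050 (edgeR adjusted p = 0.0113), and 0.32 ± 0.13 over all 6 libraries (adjusted p = 0.587). In the list of 63 other tested interferon-stimulated genes 12 rose and 1 fell without Control replicate 3, against 3.81% and 3.43% of all genes. Over all 6 libraries 0 of them were called. In the 2 fits the median of this list was 0.12 and 0.22 on the log2 scale. The oligoadenylate synthetase genes Oas3 (log2 fold change 1.82 ± 0.36), Oasl1 (0.91 ± 0.27) and Oas1c (0.69 ± 0.18) rose, as did the p200 family genes Ifi207 (1.58), Ifi203 (0.48) and Mndal (0.46). So did Lgals3bp, a secreted glycoprotein that binds galectins (0.65 ± 0.12), the helicase gene Ddx60 (0.57), Znfx1 (0.41), Trim30a (0.32), the mono-ADP-ribosyltransferase family gene Parp9 (0.28) and the Schlafen gene Slfn5 (0.22). Oas3 had only 9 to 77 counts per library. For Oas1c Control replicate 3 was the highest library, at 9.56 CPM. Over all 6 libraries the log2 fold change of Oas1c was 0.26, beside 1.87 for Oas3 and 0.86 for Oasl1.

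The gene that fell was Ifi27l2a, a short gene of 463 bases from the Ifi27 family. It had 106, 102 and 84.5 CPM in RBPMS replicates 1 to 3, against 108, 137 and 211 CPM in Control replicates 1 to 3, with a log2 fold change of -0.33 ± 0.084 without Control replicate 3 (edgeR adjusted p = 0.0205). With -0.64 over all 6 libraries it kept its sign (adjusted p = 0.587). Over all 105 pathway genes tested outside the 10, 14 rose and 1 fell without Control replicate 3, against 3.81% and 3.43% of all genes, and 81 had a positive log2 fold change, against 49.3% of all genes tested. These genes were listed with earlier results of these data known, so the counts are not independent evidence.

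**Figure D5:**
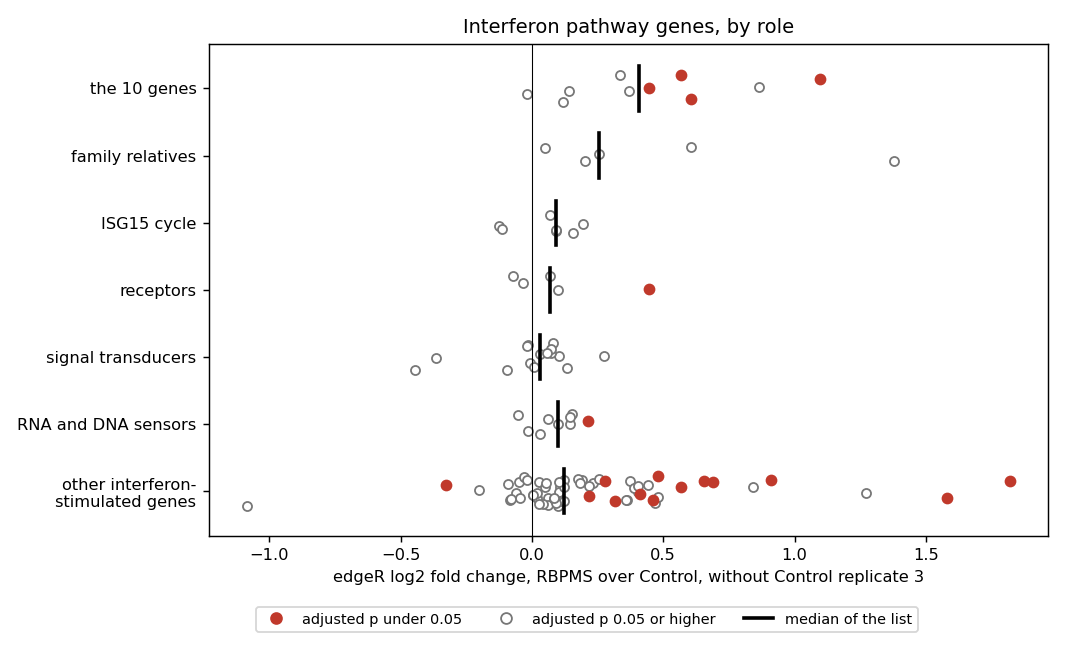
edgeR log2 fold change of each tested gene, RBPMS over Control without Control replicate 3, for the 10 genes and for 6 further groups of interferon pathway genes. Filled red points passed an adjusted p of 0.05, open points did not, and black bars are list medians, which run from 0.031 for the signal transducers to 0.41 for the 10 genes.

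Among relatives of the 10 genes 0 of 5 were called without Control replicate 3. Cmpk2, the neighbour of Rsad2 that supplies its nucleotide substrate in an antiviral pair and which was chosen after its values were seen, had 1.27, 1.44 and 0.93 CPM in RBPMS replicates 1 to 3, against 0.19, 0.74 and 0.44 CPM in Control replicates 1 to 3. Its counts were low, at 26, 31 and 17 in RBPMS replicates 1 to 3, against 3, 12 and 10 in Control replicates 1 to 3. The groups did not overlap for it, but whether the nearest libraries differed by more than counting error was not tested. The log2 fold change of Cmpk2 was 1.38 ± 0.47 (edgeR adjusted p = 0.084) and 1.41 ± 0.45 over all 6 libraries (adjusted p = 0.587). Rtp3, of the family of Rtp4, also separated the groups, which was so with RBPMS higher for 12.2% of all genes. It had 0.61 ± 0.19 (adjusted p = 0.058) and 0.76 ± 0.21 over all 6 libraries (adjusted p = 0.587).

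The genes whose levels over the 6 libraries were most like the mean profile of the 10 were Fam171a2 (Pearson r = 0.984), Oas1g (0.973), Telo2 (0.969), A630072M18Rik (0.962) and Oas1a (0.957), among 11636 genes compared. In all, 23 genes (0.198%) had an r over 0.9. These values describe 6 libraries, and the members with the widest spread, Mx1 and Rsad2, weigh most in the profile. Oas1g had 12.0, 10.7 and 8.39 CPM in RBPMS replicates 1 to 3, against 6.73, 9.50 and 10.9 CPM in Control replicates 1 to 3, and 0 of the 5 genes were called in either fit.

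Leukocytes also express these genes. The summed level of 10 leukocyte markers was 59.1 to 63.5 CPM in RBPMS libraries and 46.1 to 52.3 CPM in Control libraries. Of the 10 markers 7 never reached 1 CPM, and Adgre1, Cd3e and Siglech had no count. Ptprc, which defines leukocytes, had at most 3 counts in a library. Itgax and Lyz2 were detected in every library, and neither was called in either fit. Itgax had 86, 74 and 106 counts in RBPMS replicates 1 to 3, against 56, 83 and 67 counts in Control replicates 1 to 3. Lyz2 had 31, 34 and 21 counts in RBPMS replicates 1 to 3, against 19, 10 and 52 counts in Control replicates 1 to 3. Most of the sum was Cd68, a lysosomal protein gene, with 53.3, 58.3 and 54.8 CPM in RBPMS replicates 1 to 3, against 41.4, 46.5 and 41.7 CPM in Control replicates 1 to 3 (log2 fold change 0.34 ± 0.072 without Control replicate 3, edgeR adjusted p = 0.00545, and 0.36 ± 0.10 over all 6 libraries, adjusted p = 0.587). The part of these markers in the values of the 10 genes was not tested.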

How the data were processed

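The authors deposited 1 table of whole-number counts by gene, with a column for each of 6 libraries (total RNA, ribosomal RNA removed, per the labels' protocols). The submitters' processing notes name FastQC, Salmon and mm10. The versions, the step from Salmon estimates to whole gene counts and any use of strand were not stated in the sources used here. All 10 members have the coordinates of GENCODE M21 (GRCm38).

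Sample titles gave the groups and the replicate numbers. In R 4.3.3, counts as deposited went into edgeR 4.0.16 quasi-likelihood (filterByExpr, TMM, group as the only term, Benjamini-Hochberg over all genes tested), for the 6 libraries together and again without Control replicate 3. Levels are CPM with TMM factors of the 6-library fit, and standard errors are the log2 fold change over the square root of F. Centred levels are log2 CPM after adding 1 count. Alternatives were a replicate block, other scalings, filters and tests (DESeq2 1.42.0, limma-voom 3.58.1), a robust loess trend on gene length (span 0.3, the robust form being chosen after the data were seen), summing Ifit3 and Ifit3b, and leaving out each library. The edgeR script was tested on simulated counts with the same spread for every gene. They held no length trend and no library like Control replicate 3, so that test does not cover such a library. Shared 31-base stretches were counted in GENCODE M21 transcripts on both strands. Identity is over aligned bases of a global alignment.

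The members, the pathway lists and the fit without Control replicate 3 were chosen with earlier results of these data known. The text names all 10 members, called genes of the lists (or the 2 most abundant), the 5 genes most like the mean profile of the members (mean log2 CPM of at least 1), and a few genes marked as chosen later.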

Additional observations from a re-analysis of the deposited data

How the results depend on the processing

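Over all 6 libraries 0 genes were called, and 5 without a filter on low counts, 3 with the length trend as an offset, 56 with DESeq2 and 1087 with limma-voom with library quality weights. The replicate block called 0 genes there. Leaving out 1 library gave 0 to 1022 genes and 0 to 4 of the 10 members, with calls only without Control replicate 3, and limma-voom with quality weights called 5 members, Ifit1, Ifit2, Ifit3, Ifit3b and Rsad2. Under that setting the log2 fold changes of Isg15 (0.053), Bst2 (0.17) and Rtp4 (0.15) changed sign. Those of Bst2 (0.14) and Rtp4 (0.0047) did so with the length trend. With 1 library left out, Bst2 ran from -0.33 to 0.14 and Rtp4 from -0.35 to 0.12, positive only without Control replicate 3.

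Without Control replicate 3, 1022 genes and 4 members were called. Leaving out 1 more library gave 415 to 1017 genes and 0 to 7 members. DESeq2 called 776 genes and 0 members, with an adjusted p of 0.177 for Ifit3 and none given for Rsad2, and limma-voom lost Rsad2 (adjusted p = 0.0585). The cause of these differences was not tested. The sources used here do not say whether replicate numbers pair the libraries. Deviations of same-numbered libraries from their group means correlated at 0.0512, -0.0252 and 0.0136. Control replicate 3 enters the Control means, so these values cannot settle whether the libraries are paired. The replicate block called 917 genes and 6 members (Ifit2 and Usp18 besides the 4). With no filter on low counts 1280 genes and the same 6 members were called. The log2 fold change of Isg15, -0.019, changed sign with the block (0.16), quality weights (0.073), the length trend (0.039) and without RBPMS replicate 2 (0.048) or 3 (0.17) or Control replicate 2 (0.15), with -0.32 to 0.17 when 1 more library was left out. The other 9 members kept their sign under each alternative that gave them a value, of which there were 15 each, 14 for Rsad2 and 13 for Mx1 (DESeq2 gave neither an adjusted p, and Mx1 did not pass the filter of 1 CPM). Counting error is widest for Mx1 and Rsad2, with 3 to 116 counts per library.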
